A study of Danio rerio with 17 samples.

Results

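The genes described here carry fatty acids into mitochondria and peroxisomes, oxidise them there, regulate that oxidation, or handle ketone bodies. The group was set by name as 37 zebrafish genes, of which 35 stand in the count files of 15316 genes and 34 passed the filter on low counts. cpt1ab and pdk2a were found in the files neither under those symbols nor under an older name that the gene tables pair with them. hadhb, the beta subunit of the mitochondrial trifunctional protein, is listed at 0 in all 17 libraries, as are 541 genes in all, and in RefSeq's zebrafish annotation it neighbours hadhaa with 0 protein-coding genes between them. That count of 0 cannot tell a lack of hadhb transcripts from reads not counted for it. Whether reads of hadhb were counted under hadhaa was not tested. Of the 34 tested genes, 27 encode enzymes, carriers or electron transfer proteins of oxidation (oxidation genes below), 6 are regulators or known targets of peroxisome proliferator-activated receptors (PPARs), and 1 is a ketone body enzyme.

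Gene expression was measured by RNA sequencing in whole zebrafish embryos of the AB line, in pools of 10 embryos frozen at 72 hours post fertilization (hpf). There were 5 control libraries, 6 libraries from embryos kept in 3% glucose from 24 hpf, and 6 from embryos (FFA) whose yolk received an injection of BODIPY-labelled lipid in canola oil at 1 mg/ml, also at 24 hpf. The sources used here do not say whether control embryos were injected, whether any osmotic control was kept, or whether pools came from separate clutches; a p-value then covers no more than pool-to-pool spread, which may be technical. Groups follow the sample titles. For 11 libraries the treatment tag contradicts the title, and glucose and FFA are nearly swapped there (glucose replicates 2 to 6 carry the FFA tag, FFA replicates 2 to 6 the glucose tag, and glucose replicate 1 the control tag), so every direction given below rests on the titles.

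Fatty acids are activated to acyl-CoA, passed across the inner mitochondrial membrane as carnitine esters, and shortened by repeated rounds of dehydrogenation, hydration, dehydrogenation and thiolysis. Electrons from the first step enter the respiratory chain through the electron transfer flavoprotein, and very long or branched chains start in peroxisomes. PPAR alpha is a fatty acid-binding nuclear receptor that in mammals raises many of these genes in fasting, while the pyruvate dehydrogenase kinases restrain the entry of carbohydrate carbon into the tricarboxylic acid cycle. At this age the zebrafish embryo still feeds from its yolk.

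Each library held between 10208640 and 16745675 counts on named genes, and another 29.9 to 36.6% of all counts fell on the line for reads in no annotated feature. Levels below are CPM, a gene's counts relative to its library's total after TMM, edgeR's trimmed-mean scaling. Differences are log2 fold changes ± SE from edgeR's quasi-likelihood test in 1 fit over all libraries, and genes with a p under 0.05 after Benjamini-Hochberg adjustment over 13539 genes are said to be called. Group means are given ± SD over n = 5 control, n = 6 glucose and n = 6 FFA libraries. In these bulk samples, fewer cells of a type and less RNA per cell cannot be told apart. No transcript lengths were used, so levels are compared between groups and not between genes.

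Of the 27 oxidation genes, 6 were lower in FFA than in glucose embryos and 0 higher, by log2 fold changes of -0.22 to -0.41. In that comparison 23 of 27 lay below 0, with a median of -0.13 (all genes tested: median 0.001, 49.8% below 0). Outside the group, 17 of 20 genes listed for the tricarboxylic acid cycle lay below 0 as well (median -0.11). Over all 34 genes, 9 were called, or 26.5%, against a background of 17.0% of all genes tested; 6 were lower (background 9.0%) and 3 higher (7.98%). The 6 lower genes were hadhaa, acadm, slc25a20, hadhab, hadh and acsl1b, and the 3 higher ones were pdk2b, ucp3 and angptl4, all 3 among the regulators and PPAR targets. Groups did not overlap for 3 of the 34 (8.82%), near the background of 8.69%, and 17 (50%) had an unadjusted p under 0.05 against 30.8%. These shares are not set against genes of equal spread. The median biological coefficient of variation, edgeR's estimate of spread within groups, was 0.091 for the 34 genes and 0.116 for all genes tested.

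Against the controls the group moved little. With glucose, 19 of 27 oxidation genes were above 0 (median 0.09; all genes -0.003), but 2 of 34 were called, or 5.88%, below the background of 10.9%. hadhaa was the 1 called higher (background 5.87%) and acox3 the 1 called lower (5.02%). The groups did not overlap for 1 gene, hadhaa (2.94%, background 6.90%), and 8 (23.5%) had an unadjusted p under 0.05, against 25.1%. With FFA, 23 of 27 oxidation genes were below 0 (median -0.07; all genes -0.009), and edgeR called 0 of 34 against a background of 1.82% (1.1% higher, 0.716% lower). DESeq2 called 1, angptl4. No gene of the group separated FFA from control libraries (background 2.30%), and 5 (14.7%) had an unadjusted p under 0.05, against 10.2%. The 3 comparisons share libraries, so their values are given side by side and not as independent evidence.

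**Figure D1:**
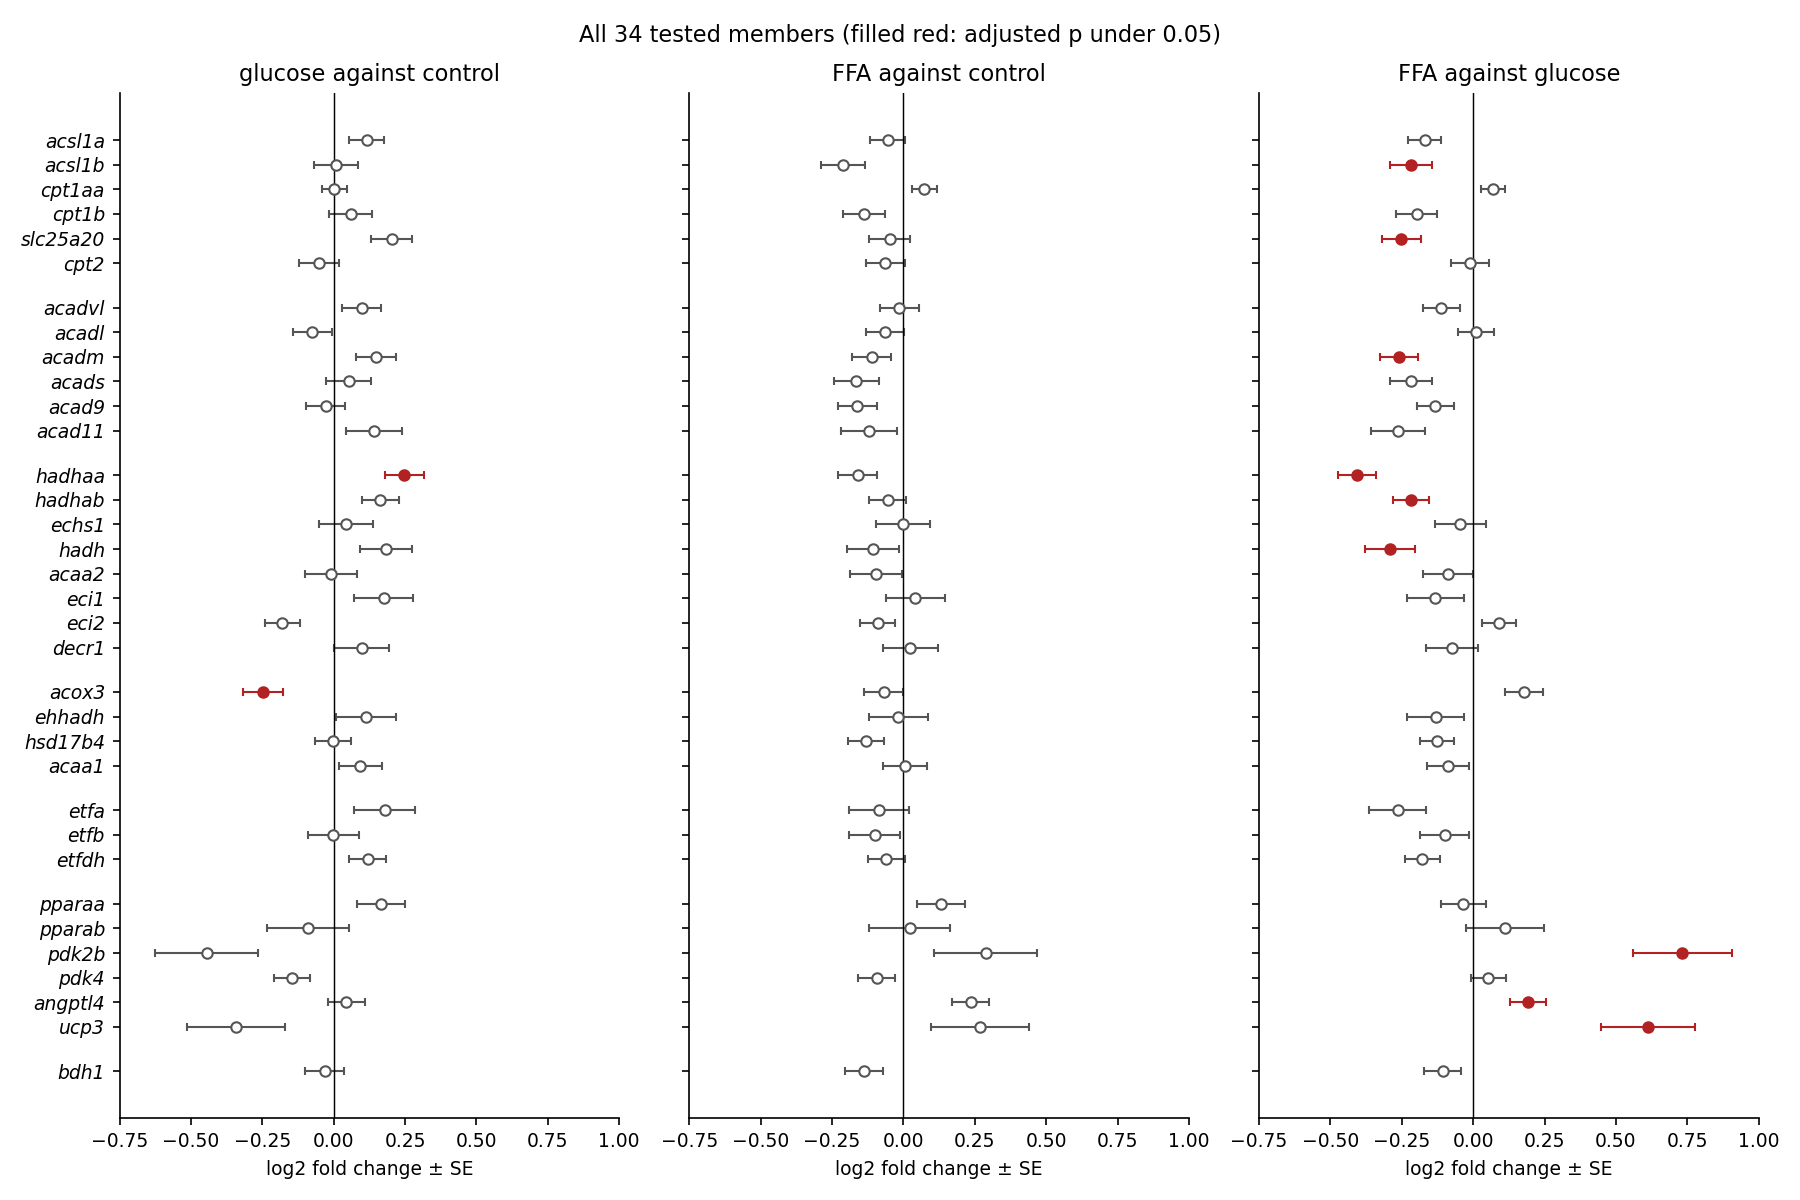
Log2 fold changes (x axis, ± SE) of the 34 tested genes in each of the 3 comparisons, ordered by role from acyl-CoA entry to the ketone body enzyme; filled red points were called. In the right panel most oxidation genes lie left of 0 and pdk2b, ucp3 and angptl4 right of it.

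Among the genes of acyl-CoA entry and the carnitine shuttle, slc25a20 and acsl1b were lower in FFA than in glucose embryos, and none of the 6 tested was called against the controls. slc25a20, the carnitine-acylcarnitine translocase of the inner membrane, measured 82.3, 92.9, 81.0, 88.3 and 95.7 CPM in the 5 controls. Across slc25a20's glucose libraries the level ran from 87.5 to 115 (median 104), and across its FFA libraries from 80.5 to 96.1 (median 82.5). The FFA libraries lay within the range of the controls or just outside it, while 4 of 6 glucose libraries were above every control and every FFA library.

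The slc25a20 difference between FFA and glucose was -0.25 ± 0.07 (edgeR, adjusted p 0.0173), and that between glucose and control 0.20 ± 0.07 (adjusted p 0.0792). acsl1b, a long-chain acyl-CoA synthetase, measured 73.5, 80.9, 68.7, 69.2 and 78.5 CPM in the controls. Across acsl1b's glucose libraries the level ran from 67.6 to 83.0 (median 75.1), and across its FFA libraries from 54.3 to 70.9 (median 66.4). All groups overlapped, and FFA replicates 4 and 5 were the lowest libraries. The acsl1b difference of -0.22 ± 0.07 between FFA and glucose (edgeR, adjusted p 0.0496) lies at the threshold: leaving out any of glucose replicates 1 to 4 or FFA replicates 2 to 5 ended the call (adjusted p up to 0.118), as did 7 of the 11 alternatives that kept the title groups. Without the 5 libraries whose no-feature share exceeds 35% the acsl1b difference was -0.12 (edgeR, adjusted p 0.285). Its paralogue acsl1a, with group means of 68.3 ± 2.87 CPM with no treatment, 74.0 ± 4.88 with glucose and 65.7 ± 5.75 with FFA, differed by -0.17 ± 0.06 and was not called (edgeR, adjusted p 0.0574).

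The carnitine palmitoyltransferases were not called in any comparison. cpt1aa, an outer-membrane enzyme of the step that malonyl-CoA inhibits, measured 49.3, 50.3, 50.3, 45.9 and 50.6 CPM in the controls. Across cpt1aa's glucose libraries the level ran from 46.5 to 50.8 (median 50.1), and across its FFA libraries from 49.4 to 53.9 (median 52.2). The groups overlapped throughout, and cpt1aa varied least within groups of all 34 genes, with a mean coefficient of variation of 3.71%. The FFA against glucose difference for cpt1aa was 0.07 ± 0.04 (edgeR, adjusted p 0.270).

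cpt1b, whose mammalian counterpart is the muscle form, measured 37.6, 42.2, 47.4, 48.9 and 48.5 CPM in the controls. Across cpt1b's glucose libraries the level ran from 44.0 to 52.7 (median 44.8), and across its FFA libraries from 37.4 to 43.8 (median 41.2). Every FFA library was below every glucose library, yet the difference of -0.20 ± 0.07 did not pass (edgeR, adjusted p 0.0652). cpt2, which turns acylcarnitine back into acyl-CoA in the matrix, measured 63.8, 61.7, 64.9, 70.7 and 73.7 CPM in the controls. Across cpt2's glucose libraries the level ran from 57.9 to 70.8 (median 64.4), and across its FFA libraries from 56.8 to 73.2 (median 62.5). Its groups overlapped, with an FFA against glucose difference of -0.01 ± 0.07 (edgeR, adjusted p 0.935).

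Of the 6 acyl-CoA dehydrogenases, which take the first step of each round for chains of different length, acadm was called lower in FFA than in glucose embryos, and 5 of 6 lay below 0 (median -0.18). acadm, the medium-chain enzyme, measured 189, 188, 223, 225 and 209 CPM in the controls. Across acadm's glucose libraries the level ran from 205 to 253 (median 227), and across its FFA libraries from 170.2 to 208 (median 191). The glucose and FFA groups met at their edges, where glucose replicate 4 was below FFA replicate 1 and level with FFA replicate 6. The acadm difference between FFA and glucose was -0.26 ± 0.07 (edgeR, adjusted p 0.0118), and that between glucose and control 0.15 ± 0.07 (adjusted p 0.189).

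acadvl, the very long-chain enzyme, measured 256, 259, 293, 303 and 299 CPM in the controls. Across acadvl's glucose libraries the level ran from 273 to 319 (median 305), and across its FFA libraries from 244 to 304 (median 287). All 3 groups overlapped, and acadvl differed by -0.11 ± 0.07 between FFA and glucose (edgeR, adjusted p 0.264). The short-chain enzyme acads (-0.22 ± 0.07, edgeR adjusted p 0.0553), acad11 (-0.26 ± 0.09, adjusted p 0.0645) and acad9, which in mammals also helps assemble respiratory complex I (-0.13 ± 0.06, adjusted p 0.171), were not called, and the long-chain enzyme acadl stood at 0.01 ± 0.06 (adjusted p 0.945). Group means of acads were 69.2 ± 7.65 CPM with no treatment, 71.8 ± 5.55 with glucose and 61.7 ± 5.36 with FFA. Those of acad11 were 58.3 ± 4.05, 64.3 ± 8.60 and 53.6 ± 6.97 CPM, those of acad9 53.7 ± 4.13, 52.7 ± 3.92 and 48.0 ± 3.58 CPM, and those of acadl 121 ± 12.2, 114 ± 6.79 and 115 ± 7.42 CPM in the same order.

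The later steps of the mitochondrial round held hadhaa, the gene with the smallest p of the group. hadhaa and hadhab encode the alpha subunit of the trifunctional protein, which hydrates and then dehydrogenates long-chain enoyl-CoA. hadhaa measured 84.7, 91.8, 93.5, 96.9 and 104 CPM in the controls. Across hadhaa's glucose libraries the level ran from 104 to 119 (median 113), and across its FFA libraries from 74.1 to 95.1 (median 84.5). Every glucose library was above every control and every FFA library, with control replicate 6 just below the lowest of them, and FFA and control libraries overlapped.

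The hadhaa difference was -0.41 ± 0.07 between FFA and glucose (edgeR, adjusted p 0.000479), 0.25 ± 0.07 between glucose and control (adjusted p 0.0276) and -0.16 ± 0.07 between FFA and control (adjusted p 0.395). The glucose against control call ended when any of control replicates 1 to 3 or glucose replicates 1, 2 and 5 was left out (edgeR, adjusted p up to 0.0762), and without the 5 libraries whose no-feature share exceeds 35% (0.19, adjusted p 0.0902). hadhab measured 233, 255, 278, 275 and 276 CPM in the controls. Across hadhab's glucose libraries the level ran from 269.8 to 318 (median 295), and across its FFA libraries from 227 to 279.6 (median 256). The glucose and FFA ranges overlapped for hadhab, and its difference was -0.22 ± 0.06 (edgeR, adjusted p 0.0235). Leaving out glucose replicate 2 or 3 or FFA replicate 4 or 5 ended that call (adjusted p up to 0.0608).

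The ratio of hadhaa to hadhab counts within a library does not depend on scaling. Its log2 value was -1.48 ± 0.06 in control, -1.40 ± 0.08 in glucose and -1.59 ± 0.07 in FFA. FFA libraries ran from -1.69 to -1.53 and glucose libraries from -1.51 to -1.30, with no overlap. That difference of -0.19 had a two-sided exact permutation p of 0.00216, the smallest that 924 arrangements can give, and 0.0195 adjusted over the 9 ratios tested. FFA against control differed by -0.11 (exact permutation p 0.0216, adjusted 0.0974) and glucose against control by 0.08 (exact p 0.0952, adjusted 0.214). So hadhaa and hadhab changed unequally between FFA and glucose libraries. The ratios of acsl1a to acsl1b and of pparaa to pparab did not pass in any comparison (exact permutation p from 0.0823 to 0.593). No source used here says how reads matching both paralogues, or reads of hadhb, were counted.

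**Figure D2:**
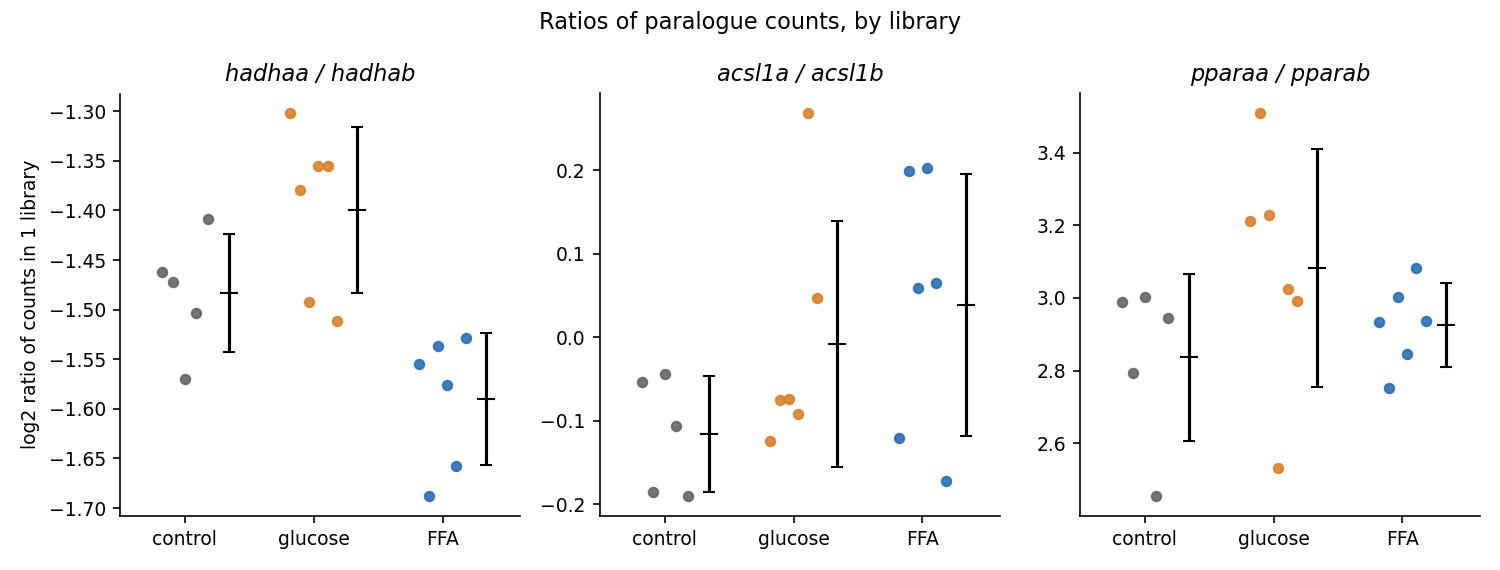
Log2 ratio of counts of 3 pairs of paralogues in each library (y axis), by group, with the mean ± SD beside the points. For hadhaa over hadhab the 6 FFA libraries lie below all 6 glucose libraries, while the other pairs overlap.

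hadh, the 3-hydroxyacyl-CoA dehydrogenase for shorter chains, measured 129, 131, 149, 162 and 144 CPM in the controls. Across hadh's glucose libraries the level ran from 129.6 to 179 (median 169), and across its FFA libraries from 115 to 151 (median 128). Glucose replicate 4 lay among the FFA libraries, and the other 5 glucose libraries were above all FFA libraries. The hadh difference was -0.29 ± 0.09 (edgeR, adjusted p 0.0280), a call that ended when any of glucose replicates 2, 3, 5 and 6 or FFA replicates 2 to 5 was left out (adjusted p up to 0.0708). The hydratase echs1 (-0.05 ± 0.09), the thiolase acaa2 (-0.09 ± 0.09), the isomerases eci1 (-0.13 ± 0.10) and eci2 (0.09 ± 0.06) and the dienoyl-CoA reductase decr1 (-0.07 ± 0.09) were not called between FFA and glucose (edgeR, adjusted p from 0.314 to 0.780). Of these, eci2 had 114 ± 7.51 CPM in control and 100.2 ± 7.13 in glucose, a difference of -0.18 ± 0.06 (edgeR, adjusted p 0.0688). It was called lower in glucose with RLE scaling, library size alone, a filter of at least 5 CPM, DESeq2 or the no-feature covariate. Leaving out glucose replicate 3 also gave that call. Across the 3 groups the means of echs1 were 124 ± 18.1, 128 ± 14.6 and 124 ± 8.06 CPM for control, glucose and FFA. Those of acaa2 were 210.0 ± 23.2, 209 ± 23.6 and 196 ± 19.4 CPM, those of eci1 58.0 ± 7.45, 65.5 ± 9.41 and 59.7 ± 5.91 CPM, and those of decr1 49.7 ± 4.37, 53.3 ± 8.13 and 50.5 ± 3.98 CPM.

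In peroxisomes, acox3 was called lower in glucose than in control embryos, and none of the 4 genes was called with FFA. acox3, an acyl-CoA oxidase that in mammals acts on branched chains, measured 43.6, 42.7, 45.5, 42.0 and 48.5 CPM in the controls. Across acox3's glucose libraries the level ran from 34.1 to 44.5 (median 36.6), and across its FFA libraries from 37.6 to 46.0 (median 42.6). The glucose libraries lay below every control, apart from glucose replicate 3, which fell among the controls. The acox3 difference was -0.25 ± 0.07 between glucose and control (edgeR, adjusted p 0.0293) and 0.18 ± 0.07 between FFA and glucose (adjusted p 0.0755). That call ended without any of control replicates 3 and 6 or glucose replicates 2, 5 and 6 (adjusted p up to 0.0805), and without the 5 libraries with a no-feature share over 35% (-0.29, adjusted p 0.0656).

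ehhadh, the peroxisomal bifunctional enzyme, measured 30.6, 31.8, 28.4, 30.9 and 34.1 CPM in the controls. Across ehhadh's glucose libraries the level ran from 27.9 to 39.9 (median 33.6), and across its FFA libraries from 24.3 to 35.9 (median 32.5). All groups overlapped for ehhadh, which differed by -0.13 ± 0.10 between FFA and glucose (edgeR, adjusted p 0.396). hsd17b4, the other bifunctional enzyme, had means of 73.5 ± 6.07, 73.4 ± 5.66 and 67.2 ± 3.33 CPM in control, glucose and FFA, and the thiolase acaa1 64.6 ± 3.14, 69.0 ± 8.16 and 64.8 ± 4.44 CPM. Their FFA against glucose differences were -0.13 ± 0.06 and -0.09 ± 0.07 (edgeR, adjusted p 0.160 and 0.437).

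Of 24 other peroxisomal genes tested, 3 were lower (decr2 and amacr among them) and 1 higher (acot8) in FFA than in glucose, with a median of -0.03. That makes 4 of 24 called, against 17.0% of all genes tested. decr2, the peroxisomal dienoyl-CoA reductase, differed by -0.35 ± 0.09 and amacr, a racemase of branched chains, by -0.36 ± 0.10, while the thioesterase acot8 differed by 0.47 ± 0.13 (edgeR, adjusted p 0.0157, 0.0190 and 0.0191). phyhd1 was lower with glucose than in control (-0.37 ± 0.09, adjusted p 0.0103), and crot, the peroxisomal carnitine octanoyltransferase, was not called in any comparison (0.11 ± 0.07 for FFA against glucose, adjusted p 0.284).

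The 3 electron transfer genes all lay below 0 for FFA against glucose and were not called. etfa and etfb encode the subunits of the electron transfer flavoprotein and etfdh its dehydrogenase. etfa averaged 214 ± 38.4 CPM with no treatment, 242 ± 28.9 with glucose and 202 ± 14.1 with FFA, a difference of -0.26 ± 0.10 between FFA and glucose (edgeR, adjusted p 0.0802). etfdh averaged 128 ± 6.14, 139 ± 11.03 and 122 ± 9.55 CPM, with a difference of -0.18 ± 0.06 (adjusted p 0.0552), and etfb 225 ± 33.1, 224 ± 21.5 and 209 ± 15.1 CPM, with -0.10 ± 0.09 (adjusted p 0.462).

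Among the regulators and PPAR targets, pdk2b, ucp3 and angptl4 were higher in FFA than in glucose embryos. pdk2b, a kinase that switches off pyruvate dehydrogenase, measured 83.3, 80.7, 77.9, 127 and 76.8 CPM in the controls. Across pdk2b's glucose libraries the level ran from 48.1 to 79.8 (median 66.8), and across its FFA libraries from 80.9 to 151 (median 99.7). Every FFA library was above every glucose library, and 4 of 5 controls fell between 76.8 and 83.3 with replicate 4 well above them. The pdk2b difference was 0.73 ± 0.17 between FFA and glucose (edgeR, adjusted p 0.00784), -0.44 ± 0.18 between glucose and control (adjusted p 0.130) and 0.29 ± 0.18 between FFA and control (adjusted p 0.721). pdk2b varied most within groups of all 34 genes, with a mean coefficient of variation of 23.0%. Whether reads of pdk2a were counted under pdk2b was not tested.

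ucp3, a mitochondrial carrier named an uncoupling protein, measured 39.6, 28.6, 41.9, 54.8 and 41.7 CPM in the controls. Across ucp3's glucose libraries the level ran from 19.9 to 43.4 (median 33.8), and across its FFA libraries from 38.7 to 56.9 (median 52.1). The FFA and glucose groups overlapped only through FFA replicate 6, which was below glucose replicate 2, and controls spanned much of both. ucp3 differed by 0.61 ± 0.16 between FFA and glucose (edgeR, adjusted p 0.0167), with -0.34 ± 0.17 for glucose against control (adjusted p 0.225). angptl4, a secreted inhibitor of lipoprotein lipase, measured 158, 164, 167, 188 and 152 CPM in the controls. Across angptl4's glucose libraries the level ran from 143 to 183 (median 174), and across its FFA libraries from 181 to 206 (median 195). FFA libraries were above the other groups apart from control replicate 4 and glucose replicate 5, which exceeded the lowest FFA library.

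The angptl4 difference was 0.19 ± 0.06 between FFA and glucose (edgeR, adjusted p 0.0408) and 0.24 ± 0.06 between FFA and control (adjusted p 0.0852). The first call held without glucose replicate 3 or 5 or FFA replicate 4 and ended without any other single library of those groups (adjusted p up to 0.0846). It also ended without the 5 libraries with a no-feature share over 35% (0.18, adjusted p 0.0524). lpl, the lipase that angptl4 inhibits, was not called (0.21 ± 0.08, edgeR, adjusted p 0.0914).

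**Figure D3:**
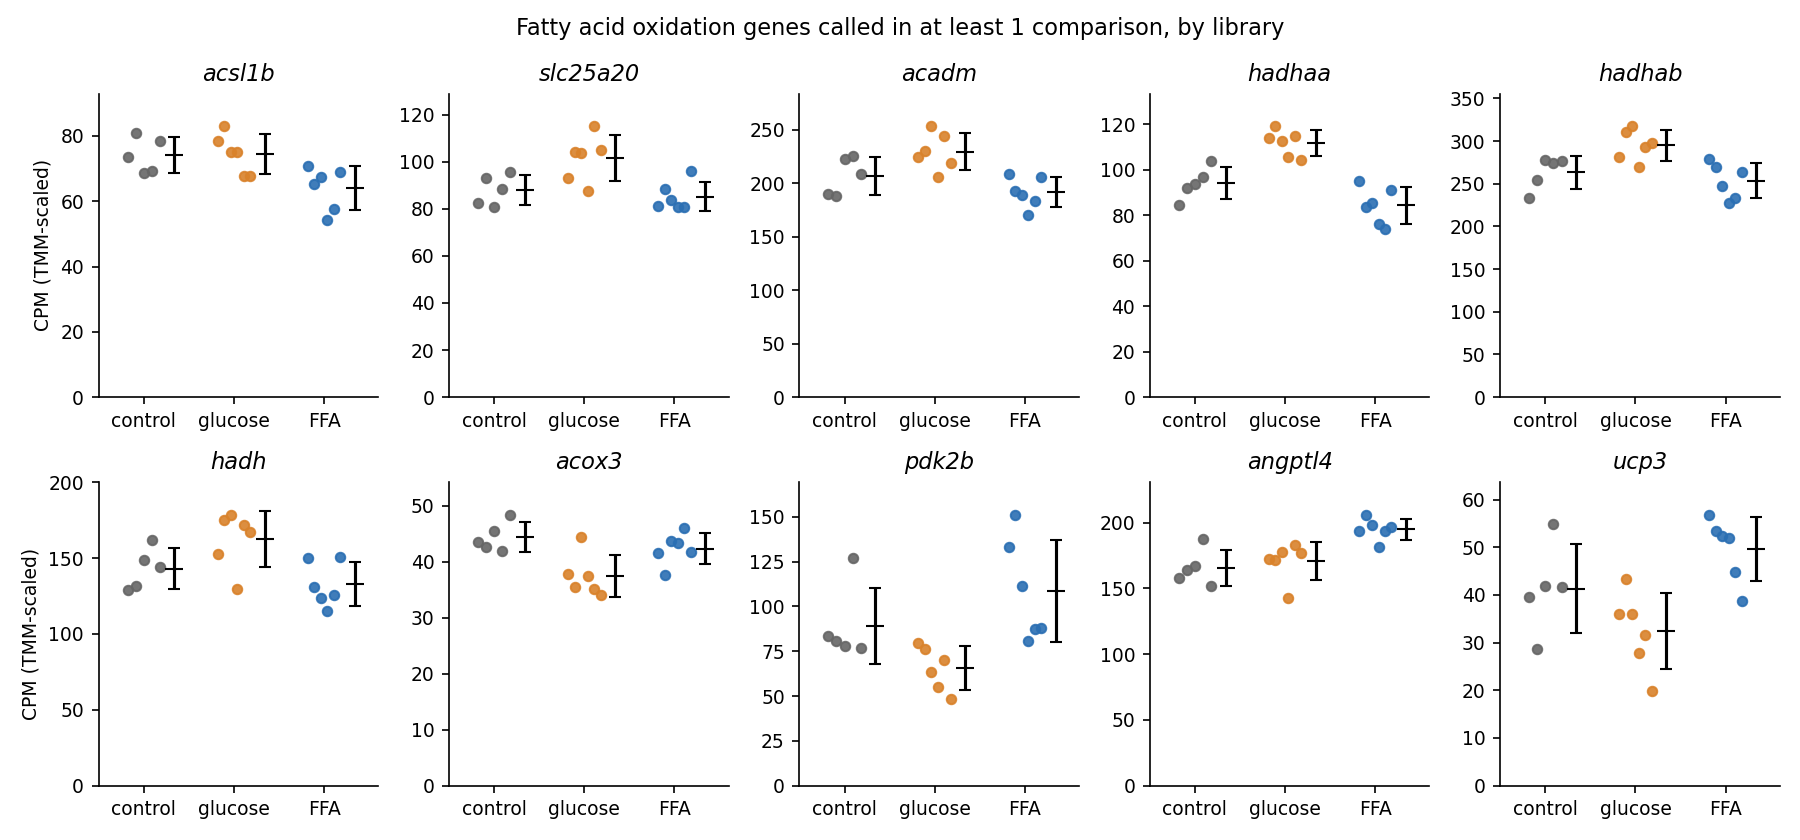
CPM of the 10 called genes in each library (y axis from 0), by group, with the mean ± SD beside the points. For hadhaa and pdk2b the FFA and glucose libraries do not overlap; for the other 8 genes their ranges overlap.

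The remaining regulators were not called. pdk4, another pyruvate dehydrogenase kinase and a known PPAR target in mammals, measured 69.9, 63.5, 79.1, 73.7 and 72.4 CPM in the controls. Across pdk4's glucose libraries the level ran from 58.9 to 70.0 (median 64.6), and across its FFA libraries from 62.9 to 72.9 (median 66.2). Its groups overlapped, with -0.15 ± 0.06 for glucose against control (edgeR, adjusted p 0.164), a difference that passed without the 5 libraries with a no-feature share over 35% (-0.25, adjusted p 0.0300).

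pparaa, one of the zebrafish genes for PPAR alpha, measured 21.1, 20.4, 20.6, 23.3 and 23.3 CPM in the controls. Across pparaa's glucose libraries the level ran from 21.7 to 29.0 (median 24.0), and across its FFA libraries from 21.1 to 28.2 (median 23.7). The groups overlapped, and pparaa differed by -0.03 ± 0.08 between FFA and glucose (edgeR, adjusted p 0.812). pparab, its paralogue, measured 2.63, 2.91, 2.53, 4.22 and 2.99 CPM in the controls. Across pparab's glucose libraries the level ran from 2.52 to 3.74 (median 2.70), and across its FFA libraries from 2.71 to 3.33 (median 3.18). pparab groups overlapped as well (0.11 ± 0.14, edgeR, adjusted p 0.634).

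bdh1, which interconverts the ketone bodies acetoacetate and 3-hydroxybutyrate, measured 19.7, 22.7, 21.0, 23.5 and 19.7 CPM in the controls. Across bdh1's glucose libraries the level ran from 18.3 to 22.6 (median 21.0), and across its FFA libraries from 17.6 to 21.0 (median 19.4). All 3 groups overlapped, and the bdh1 differences were -0.14 ± 0.07 for FFA and -0.03 ± 0.07 for glucose against control (edgeR, adjusted p 0.521 and 0.810). Of 11 other ketone body genes tested, 1 was lower in FFA than in glucose, the monocarboxylate transporter slc16a1b (-0.19 ± 0.07, edgeR, adjusted p 0.0491), and 1 higher in glucose than in control, the acetoacetyl-CoA synthetase aacs (0.32 ± 0.10, adjusted p 0.04996). Over all genes tested, 9.0% were called lower in FFA than in glucose and 5.87% higher in glucose than in control. oxct1a, which activates acetoacetate for use, and the thiolase acat1 were not called in any comparison (FFA against glucose 0.10 ± 0.04 and 0.03 ± 0.07, edgeR, adjusted p 0.109 and 0.788).

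Related lists outside the 37 genes were read for the same contrast, FFA against glucose. Over all genes tested, 17.0% were called there, 9.0% lower and 7.98% higher. Of 20 genes listed for the tricarboxylic acid cycle, 4 were lower and 0 higher in FFA than in glucose, and 17 lay below 0 (median -0.11). For glucose against control 15 of the 20 lay above 0 (median 0.07), and for FFA against control 17 lay below 0 (median -0.05). Most oxidation genes had the same directions in all 3 comparisons. sdha was among the cycle genes higher in glucose than in control. sdha, a subunit of succinate dehydrogenase, differed by -0.32 ± 0.05 between FFA and glucose, and mdh1ab by -0.46 ± 0.14 (edgeR, adjusted p 0.000424 and 0.0344). mdh1ab is listed here but encodes a cytosolic malate dehydrogenase. Around pyruvate dehydrogenase, 3 of 11 were lower, the subunits dlat (-0.40 ± 0.07) and pdha1a (-0.21 ± 0.05) and the activating phosphatase pdp1 (-0.30 ± 0.06), with edgeR adjusted p 0.00116, 0.0101 and 0.00381. Of these 11 genes, 9 lay below 0 for FFA against glucose (median -0.07).

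Of 33 other genes listed for mitochondrial fatty acid and acyl-CoA metabolism, 4 were higher and 2 lower in FFA than in glucose (median -0.07). Not all of the 33 encode mitochondrial proteins. That makes 6 of 33 called, against 17.0% of all genes tested. acsl4a, an acyl-CoA synthetase that in mammals prefers arachidonate, was higher in FFA than in both other groups (0.44 ± 0.07 against glucose and 0.35 ± 0.07 against control, edgeR, adjusted p 0.000476 and 0.0179). acsl5, another synthetase, differed by 0.36 ± 0.08 and acsm3, a medium-chain synthetase, by 0.40 ± 0.10, while the epimerase mcee differed by -0.23 ± 0.06 and nudt19 by -0.40 ± 0.13 (edgeR, adjusted p 0.00455, 0.0128, 0.0169 and 0.0463). With glucose against control, acsl5 (-0.30 ± 0.08) and slc22a4 (-1.07 ± 0.27) were lower (edgeR, adjusted p 0.0241 and 0.0176), slc22a4 from counts of 3 to 25 per library. mlycd, which degrades malonyl-CoA, was not called (0.23 ± 0.13 for FFA against glucose, adjusted p 0.275).

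Of 24 PPAR network genes tested, 1 was called between glucose and control (all genes 10.9%) and 1 between FFA and glucose (all genes 17.0%). Both calls were of lpin1, a phosphatidate phosphatase that in mammals is also a PPAR alpha coactivator. It measured 118 ± 11.1 CPM with no treatment, 67.0 ± 4.84 with glucose and 110.3 ± 14.8 with FFA, a difference of -0.82 ± 0.09 with glucose relative to control and 0.72 ± 0.09 with FFA relative to glucose (edgeR, adjusted p 1.28e-05 and 3.86e-05). Among relatives of ucp3 and angptl4, ucp1, the uncoupling protein of mammalian brown fat, measured 254 ± 50.04, 153 ± 22.5 and 255 ± 11.8 CPM in the same order, with -0.73 ± 0.11 with glucose relative to control and 0.73 ± 0.11 with FFA relative to glucose (adjusted p 0.000527 and 0.000270). The lipase maturation factor lmf2b (-0.28 ± 0.06) and the carrier slc25a27 (-0.43 ± 0.14) were lower in FFA than in glucose (edgeR, adjusted p 0.00407 and 0.0391). In that list of 16 tested genes, 1 was called between glucose and control and 4 between FFA and glucose, against the same shares of all genes. ppargc1a is not reported here.

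**Figure D4:**
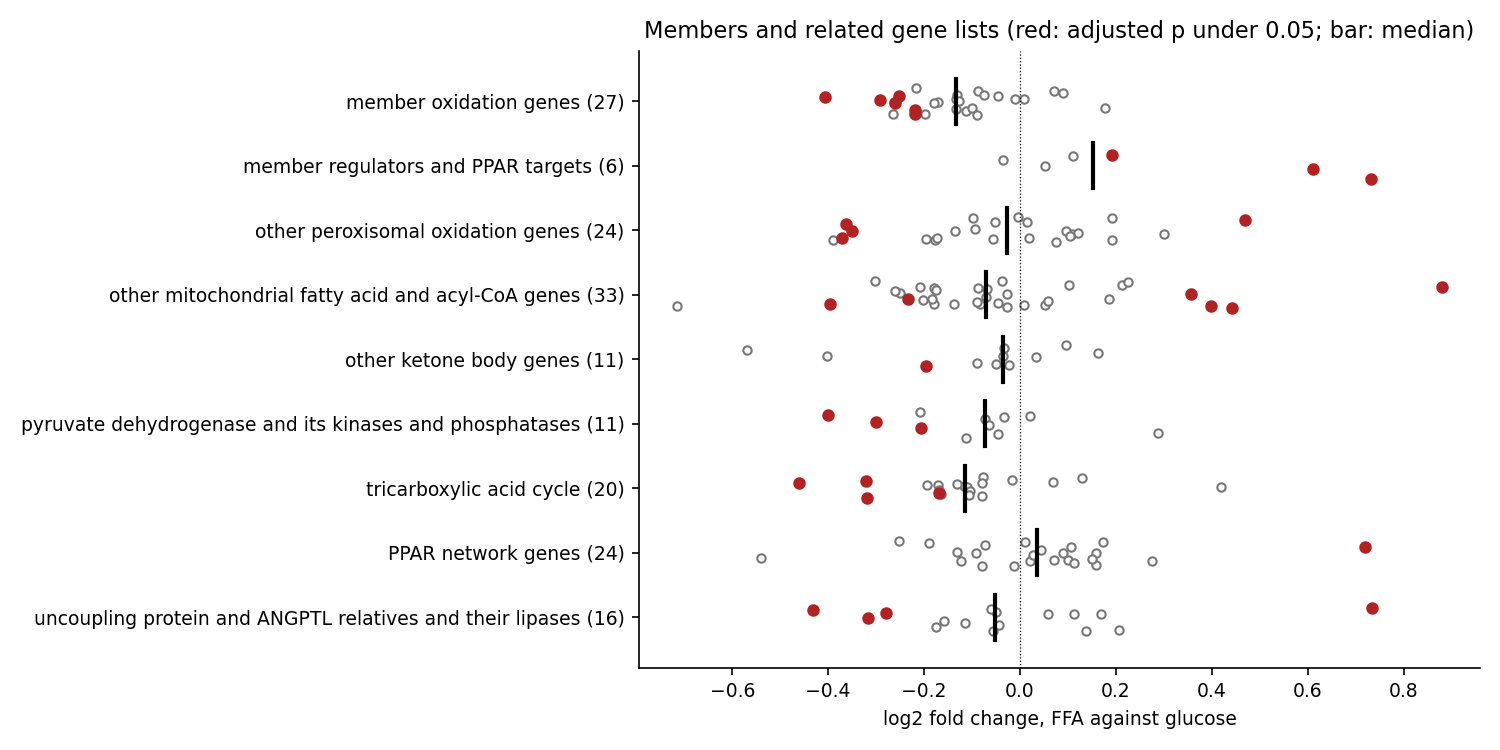
Log2 fold change of FFA against glucose (x axis) for each tested gene of the group and of related lists, with the number of genes in brackets; red points were called and bars are medians. The medians of the oxidation genes (-0.13) and of the tricarboxylic acid cycle (-0.11) lie left of 0, and that of the regulators and PPAR targets right of it.

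Levels of the oxidation genes moved with the no-feature share of a library. Their summed level was 2758 to 3261 CPM over the control libraries, 2798 to 3424 over glucose and 2608 to 3100.2 over FFA, so the groups overlapped. Within groups, 25 of the 27 had a negative slope against that share, with a median of -0.04 log2 per percentage point (all genes -0.01, 56.5% of them negative). In the library with the highest share of each group, 21 of 27 were lower than in that with the lowest share in control (replicates 1 and 4), 26 in glucose (replicates 4 and 3) and 24 in FFA (replicates 4 and 6). This was not particular to the oxidation genes. Over all 34 tested genes 31 had a negative slope, with pdk2b at -0.07, ucp3 at -0.05 and angptl4 at -0.04. The libraries above 35% had the lowest sums of their group for the tricarboxylic acid cycle and for liver, skeletal muscle and heart markers as well. With the share as a covariate, 20 of 27 lay below 0 for FFA against glucose (median -0.10) and 15 of 34 genes were called, 11 lower and 4 higher, while the share called over all genes rose from 17.0 to 29.4%. Leaving out the 5 libraries above 35% (control 1 and 2, glucose 4, FFA 4 and 5), a choice made after seeing the data, gave 22 of 27 below 0 (median -0.12) and 7 of 34 called, against 15.3% of all genes. Leaving out only control 1 and 2 and glucose 4, which keeps both FFA libraries above 35%, gave 14, against 27.5% of all genes.

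**Figure D5:**
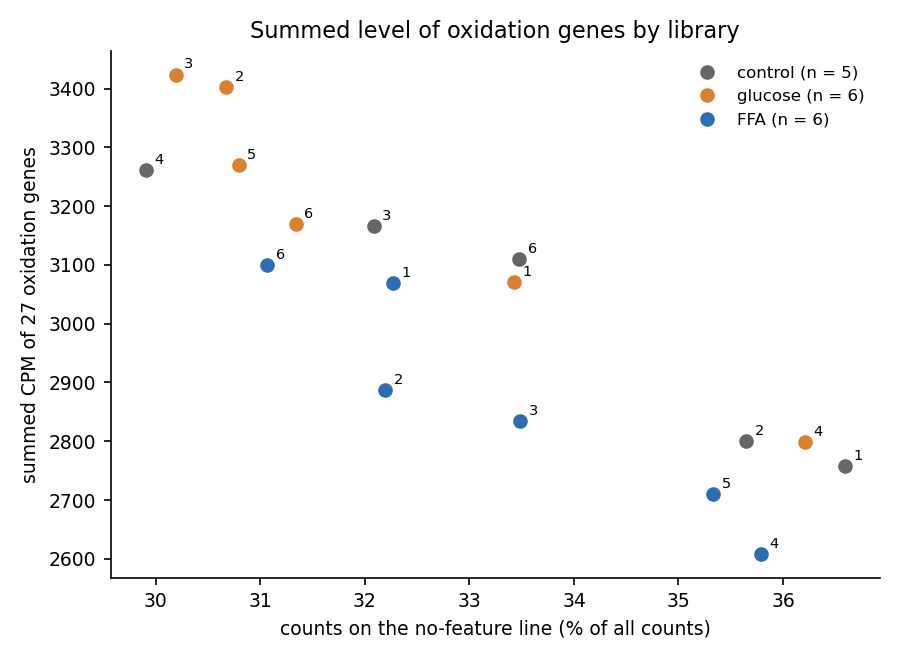
Summed CPM of the 27 oxidation genes (y axis, not from 0) against the share of counts on the no-feature line (x axis, %) in each library; numbers are replicates. Libraries with a share over 35% have the lowest sums of their group.

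Marker genes of several tissues were also read, and some were called between the groups. Over all genes tested, 5.87% were called higher and 5.02% lower in glucose than in control. For FFA against glucose these shares were 7.98% and 9.0%. All 8 intestine markers tested summed to 1724 to 2024 CPM over control, 1291 to 1836 over glucose and 1608 to 1916 over FFA libraries, and 6 of 8 were lower in glucose than in control and higher in FFA than in glucose. Erythrocyte markers (8) summed to 877 to 1286, 1121 to 1686 and 929 to 1243 CPM, with 3 higher in glucose than in control, and 4 lower and 1 higher in FFA than in glucose. All 8 erythrocyte markers lay above 0 for glucose against control (median 0.37), and 6 of 8 below 0 for FFA against glucose (median -0.42). For FFA against control 6 of the 8 lay above 0 (median 0.06). The 17 skeletal muscle markers summed to 39885 to 54365, 46788 to 58269 and 42151 to 58106 CPM, with 1, tnnt3a, higher in glucose than in control. Of these muscle markers, 17 of 17 lay above 0 for glucose against control (median 0.18) and 14 of 17 below 0 for FFA against glucose (median -0.08). In these 2 comparisons most oxidation genes had the same directions. For FFA against control the directions were opposite, with 16 of 17 muscle markers above 0 (median 0.10) and 23 of 27 oxidation genes below 0 (median -0.07). The 9 heart markers summed to 262 to 380.4, 264 to 417 and 274 to 341 CPM, and 1, myl7, was lower in FFA than in glucose. Of these heart markers, 7 of 9 lay above 0 for glucose against control (median 0.27) and 6 of 9 below 0 for FFA against glucose (median -0.13). For FFA against control 6 of 9 heart markers lay below 0, with a median of -0.01 near that of all genes (-0.009, 53.2% below 0). The 17 liver markers summed to 9209 to 13658, 8310.4 to 13692 and 9823 to 11781 CPM, with 1 higher and 4 lower in glucose than in control, and 2 higher and 2 lower in FFA than in glucose. Yolk syncytial layer and lipoprotein markers (8 tested, pparab among them) summed to 10696 to 15486, 10480.0 to 14443 and 12144 to 14701 CPM, with 2 higher and 1 lower in FFA than in glucose. The 9 neuron markers summed to 1203 to 3134.5, 1523 to 2767 and 1843 to 2665 CPM, and the 10 photoreceptor markers to 1014 to 5947.5, 846 to 5101 and 1399 to 3866.5 CPM. The libraries with a no-feature share over 35% had the highest sums of their group for both lists: for photoreceptors, 5947.5 and 4509.5 CPM in control 1 and 2 against at most 1582 in other controls, 5101 in glucose 4 against at most 1711, and 3467 and 3866.5 in FFA 4 and 5 against at most 3397. Their medians for glucose against control were -0.27 (neuron) and -0.51 (photoreceptor), and for FFA against glucose 0.17 and 0.29, with no marker of either list called. In the same libraries the sums of liver, skeletal muscle and heart markers were the lowest of their group. The part of any of these tissues in the changes of the oxidation genes was not tested.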

How the data were processed

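The authors deposited 1 table of raw read counts per gene for each of 17 pools of embryos, with no normalization in the values. Per the labels' protocols, stranded poly(A) libraries were sequenced together as paired-end reads; the genome build danRer7 and the tools STAR and DESeq2 are named, without version or role, per the submitters' processing notes. No source used here states the counting tool, its strand setting or its rule for multi-mapping reads. The 2 lines that name no gene (no feature, 29.9 to 36.6% of counts, and ambiguous, 0.213 to 0.252%) stayed out of library sizes and tests.

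The test was edgeR's (4.0.16, in R 4.3.3) quasi-likelihood F-test on TMM-scaled libraries after filterByExpr (minimum count 10), which kept 13539 genes, with 1 mean per title group and 14 residual degrees of freedom. Ratios of paralogues used counts plus 0.5 and an exact permutation test whose two-sided p doubles the smaller tail, as in SciPy 1.17.1. The procedures were tested on simulated data, where recovery of changed genes was required only at fold changes far larger than any called in the group. Alternatives were RLE scaling, library size alone, other count filters, DESeq2 1.42.0, limma-voom (limma 3.58.1), the compared groups alone, a replicate block, the no-feature share as a covariate, fewer libraries, the tags as groups, and pseudocounts of 1 and 0.1.

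The 37 genes and all lists were chosen with earlier results of these data known. For genes called in at least 1 comparison and for a panel set by name, each control library's value and the lowest, median and highest glucose and FFA values are given; other genes of the group are given by group mean or difference. Of related lists, called genes with the smallest p are named, up to 3 per direction and comparison, with a panel set by name; some genes of these lists are not reported here. Sequences and a promoter motif search were not used here, and gene symbols were matched with RefSeq's GRCz12tu tables for names and neighbours alone.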

Additional observations from a re-analysis of the deposited data

Results flagged for a closer look

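In 6 of 57 groups of libraries checked (19 genes in 3 groups), the highest or lowest library lay far from the rest by Dixon's test, where chance gives about 1 in 20. cpt1aa measured 45.9 CPM in control replicate 4, the lowest of 5, with the others between 49.3 and 50.6 CPM. acox3 measured 44.5 CPM in glucose replicate 3, the highest of 6, with the others between 34.1 and 37.8 CPM. pparab measured 4.22 CPM in control replicate 4, the highest of 5, with the others between 2.53 and 2.99 CPM. pparab measured 3.74 CPM in glucose replicate 4, the highest of 6, with the others between 2.52 and 2.97 CPM. pdk2b measured 127 CPM in control replicate 4, the highest of 5, with the others between 76.8 and 83.3 CPM. angptl4 measured 143 CPM in glucose replicate 4, the lowest of 6, with the others between 172 and 183 CPM. Of these 6, 3 were control replicate 4 and 2 were glucose replicate 4, which hold the lowest and the highest no-feature share of their group (29.9 and 36.2%). Whether that share plays a part was not tested.

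The comparison of FFA with glucose is also the test of whether the treatments differ in their effect against the same controls. In it 9 of 34 genes passed (26.5%), against 17.0% of all genes tested. The log2 difference was lower with FFA for acsl1b (-0.22), slc25a20 (-0.25), acadm (-0.26), hadhaa (-0.41), hadhab (-0.22) and hadh (-0.29), and higher for pdk2b (0.73), angptl4 (0.19) and ucp3 (0.61). edgeR's adjusted p ran from 0.000479 for hadhaa to 0.0496 for acsl1b.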

How the results depend on the processing

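Of the 9 genes called between FFA and glucose, slc25a20, acadm, hadhaa, pdk2b and ucp3 passed under the 11 alternatives that kept the title groups and in the 12 fits without 1 library; the calls of acsl1b, hadhab, hadh and angptl4, and both glucose against control calls, ended in some. With groups by the treatment tag all 9 differences turned sign, and acadm (0.27), hadhaa (0.40) and hadhab (0.25) were called in that opposite direction. The number called between FFA and glucose was 9 (17.0% of all genes), and became 14 with DESeq2 (19.3%), 15 with the no-feature share as covariate (29.4%), 14 without 3 libraries of high share (27.5%), 7 without all 5 above 35% (15.3%; added after seeing the data), 4 with groups by the treatment tag (3.77%), and 5 to 12 without 1 library (12.2 to 20.4%). By the tags, 24 of 27 oxidation genes lay above 0 for FFA against glucose (median 0.15), the other way from the titles. For glucose against control, 2 (10.9%) became 3 with RLE scaling (10.7%), library size alone (11.1%), a mean of 5 CPM (10.8%) or DESeq2 (12.8%), with eci2 added. The number was 1 with the groups alone (7.51%), 5 with the covariate (18.6%), 0 by the tags (0.783%) and 0 to 3 without 1 library (7.9 to 14.9%). Without 3 or 5 libraries it was 1 (8.75 and 8.82%). That gene was pdk4, and the calls of hadhaa and acox3 both ended there. For FFA against control, 0 (1.82%) became 1 by library size alone (2.18%), with DESeq2 (2.81%) or with the covariate (4.79%), and 0 to 1 without 1 library (1.16 to 1.87%). By the tags 0 were called there (0.00739% of all genes). The tags exchange most glucose and FFA libraries, so the turned signs for FFA against glucose follow from the relabelling. The cause of the other moves was not tested.

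Same-numbered libraries of different groups had correlations of their deviations from group means between -0.796 and 0.581, 5 of 16 above 0.1. In this check 2 libraries were nearest to their own number, and the main test used no pairing. Spread within groups that goes with the no-feature share could mask a pairing, so whether the numbers pair samples cannot be told here. With a replicate block, edgeR called 0, 0 and 6 members for glucose against control, FFA against control and FFA against glucose. The shares called over all genes in that fit were 6.72, 0.872 and 12%.

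Apart from the tags, 26 of 102 log2 differences (34 genes, 3 comparisons) changed sign in at least 1 alternative, and 0 of these 26 had been called in that comparison. Of them 15 belong to genes given by group mean, and those of the other genes follow. acsl1b glucose against control (0.00700) gave -0.00686 with RLE scaling, -0.0313 with library size, -0.00220 with a mean of 5 CPM, -0.00650 with DESeq2, -0.00721 with the groups alone, -0.0263 to 0.0402 without 1 library. cpt1aa glucose against control (0.00240) gave -0.0109 with RLE scaling, -0.0346 with library size, -0.00664 with a mean of 5 CPM, -0.0103 with DESeq2, -0.0111 with the groups alone, -0.00225 with a replicate block, -0.00187 without 3 libraries, -0.00973 without 5 libraries, -0.0221 to 0.0191 without 1 library. cpt1b glucose against control (0.0594) gave -0.0352 without 3 libraries, -0.0436 without 5 libraries. cpt2 FFA against glucose (-0.0109) gave 0.0212 with library size, 0.0157 with the covariate, 0.0520 without 5 libraries, -0.0520 to 0.0218 without 1 library. acadvl FFA against control (-0.0140) gave -0.0469 to 0.0218 without 1 library. ehhadh FFA against control (-0.0174) gave 0.0264 without 5 libraries, -0.0649 to 0.0424 without 1 library. pparaa FFA against glucose (-0.0346) gave 0.00137 with library size, -0.0890 to 0.0220 without 1 library. pparab glucose against control (-0.0900) gave -0.19 to 0.0503 without 1 library. pparab FFA against control (0.0212) gave -0.0696 without 3 libraries, -0.13 without 5 libraries, -0.0353 to 0.16 without 1 library. angptl4 glucose against control (0.0433) gave -0.00913 with the covariate. bdh1 glucose against control (-0.0312) gave -0.0594 to 0.00632 without 1 library. the ratio of pparaa to pparab, FFA against control (0.0895) gave -0.00631 to 0.13 without 1 library.

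Depth was 10.2 to 16.7 M counts per library. pparab, at 2.52 to 4.22 CPM, is the least precise of the group by depth.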
